A study of Mus musculus with 20 samples.

Results

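The imprinted growth genes H19, Igf2, Meg3, Dlk1, Rian, Peg3, Plagl1, Grb10, Cdkn1c and Mest were 10 of the 57010 genes in the count table. They were taken by symbol, each symbol matched an Ensembl identifier, and each gene was followed in all 20 libraries whatever its level. RNA was taken from 2 tissues, liver and kidney, of males of the UM-HET3 stock at 12 months of age, and which liver and kidney came from the same mouse is not given in the sources used here. UM-HET3 is a genetically heterogeneous stock, so mice of a group differ in genotype as well as in sampling. In the 7c group (n = 6 in each tissue) a subcutaneous osmotic minipump delivered repsox, tranylcypromine, DZNep, CHIR99021, forskolin and TTNPB at 0.1 mg/kg/day each, and valproate at 1 mg/kg/day, for 28 days. The vehicle group (n = 4 in each tissue) carried pumps with the solvent alone, 50% DMSO and 50% PEG300, which the 7c mice received as well. The question put to these genes was whether chemical reprogramming in the living animal was accompanied by a change in their RNA, and how their RNA differed between the 2 tissues.

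Imprinted genes are read mainly from the copy inherited from a single parent. DNA methylation laid down in the germ line at a control region of the cluster marks which copy that is, and the silent copy is held off by methylation of its promoter at some genes and through a noncoding RNA or a CTCF boundary at others. Paternally expressed genes such as Igf2, Peg3, Plagl1, Dlk1 and Mest tend to favour fetal growth and maternally expressed genes such as Grb10, Cdkn1c and H19 tend to restrain it, and in mice most of these genes are turned down in liver and kidney after birth. Several of the 7c compounds act on chromatin (valproate on histone deacetylases, tranylcypromine on the LSD1 demethylase, DZNep on histone methylation), and forskolin raises cAMP, but the counts do not tell the parental copies apart, so imprinting itself was not measured.

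Meg3 and Rian were the members on which most of the results turned. Both are maternally expressed long noncoding RNAs of the Dlk1/Dio3 cluster, read from the plus strand of chromosome 12. On GRCm39 the GENCODE annotation places Meg3 at chr12:109506877-109538165 and Rian at chr12:109570242-109628150. The RefSeq promoter windows (GRCm38.p6, 250 bases before to 50 bases after the start) are shown because these 2 RNAs varied together over the livers, with each CpG in capitals since CpG is where this methylation lies. The first Meg3 window, chr12:109540746-109541045 on the plus strand, held 13 CpG and the Rian window, chr12:109603695-109603994 on the plus strand, held 0, against a median of 7 over 32851 windows, of which 5.43% held no CpG. A second Meg3 window, chr12:109545148-109545447 on the plus strand, held 1 CpG, and 94.6% of windows held as many or more.
Meg3 promoter window 1: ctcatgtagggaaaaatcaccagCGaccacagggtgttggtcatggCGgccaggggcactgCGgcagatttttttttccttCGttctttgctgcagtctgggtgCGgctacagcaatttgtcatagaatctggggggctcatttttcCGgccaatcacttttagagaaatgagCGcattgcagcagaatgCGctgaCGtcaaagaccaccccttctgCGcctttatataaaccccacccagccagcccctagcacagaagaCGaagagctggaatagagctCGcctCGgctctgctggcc
Rian promoter window: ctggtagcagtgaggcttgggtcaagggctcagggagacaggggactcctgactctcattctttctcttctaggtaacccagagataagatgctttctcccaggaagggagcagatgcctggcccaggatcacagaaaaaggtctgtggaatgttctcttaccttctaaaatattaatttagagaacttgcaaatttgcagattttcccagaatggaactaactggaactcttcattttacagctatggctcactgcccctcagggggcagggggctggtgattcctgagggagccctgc
The cAMP response element TGACGTCA, the site bound by CREB, was searched on both strands and stood in this Meg3 window 57 bases before the start. It was also found in the Peg3 window, and 1.79% of all windows held it. The TATA box letters TATAAA stood 25 bases before the Meg3 start, as in 13.6% of all windows on either strand. A match of letters shows neither binding nor a response.

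The Meg3 and Rian transcripts also carry microRNA hairpins. RefSeq lists 3 mature microRNAs from 2 hairpins within Meg3 and 6 from 3 hairpins within Rian. Over the 15 mature microRNAs hosted by H19, Igf2, Meg3, Rian and Mest no seed (bases 2 to 8, in capitals below) was shared. A mature sequence from 4 of the 5 Meg3 and Rian hairpins is given to show what these host RNAs encode. 
mmu-miR-770-5p: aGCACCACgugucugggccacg
mmu-miR-341-5p: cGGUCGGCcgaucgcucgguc
mmu-miR-1188-5p: uGGUGUGAgguugggccagga
mmu-miR-370-3p: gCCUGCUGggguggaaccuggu
The first lies in Meg3 and the other 3 in Rian. The hairpin genes had 0 counts in these libraries of polyadenylated RNA, and mature microRNAs were not measured.

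Liver libraries held 28383359 to 34153084 counts and kidney libraries 27855849 to 64872451. Levels are given as CPM, counts scaled to library size, with a single TMM scaling over all 20 libraries. Across all genes 78.6% of the values from 1 to 20 were even, and so were 31 of the 37 such values of the members, so small counts may hold both reads of a pair and a count of 2 can be a single fragment. All 7 hepatocyte markers were above 0 in every group, with a summed level of 93477 to 133986 CPM in liver and 1686 to 2343 CPM in kidney. The 7 kidney epithelial markers summed to 28993 to 57701 CPM in kidney and 0.502 to 2.13 CPM in liver. The liver library 7c replicate 6 stood apart, because its 9 skeletal muscle markers summed to 977 CPM against 0.502 to 2.23 CPM in the other 9 livers. Results that rest on this library are given with and without it. In bulk tissue, fewer cells of a type and less RNA per cell cannot be told apart.

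Of the 10 members, 7 (Meg3, Rian, Grb10, Cdkn1c, Peg3, Plagl1 and Mest) reached 10 counts in at least 50% of the libraries of a tissue, in liver as in kidney, and entered the tests across all genes. H19, Igf2 and Dlk1 stayed under this minimum in both tissues. Levels were compared between genes as CPM per kilobase of all annotated exons. In vehicle livers the order was Meg3 at 0.908 ± 0.326 (SD, n = 4), Cdkn1c at 0.657 ± 0.419, Grb10 at 0.475 ± 0.150, Peg3 at 0.321 ± 0.0987, Mest at 0.295 ± 0.0819, Rian at 0.255 ± 0.0855 and Plagl1 at 0.213 ± 0.102 CPM per kb. Each of these neighbours differed by less than the sum of their SDs. In vehicle kidneys Cdkn1c led at 6.03 ± 0.789 CPM per kb, followed by Grb10 at 2.16 ± 0.310, Peg3 at 0.504 ± 0.110, Plagl1 at 0.384 ± 0.107, Mest at 0.130 ± 0.0545, Meg3 at 0.0477 ± 0.0236 and Rian at 0.00688 ± 0.00477. There Peg3 and Plagl1 were the only neighbours within the sum of their SDs. The plot of CPM by library shows the same values without the length correction.

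**Figure D1:**
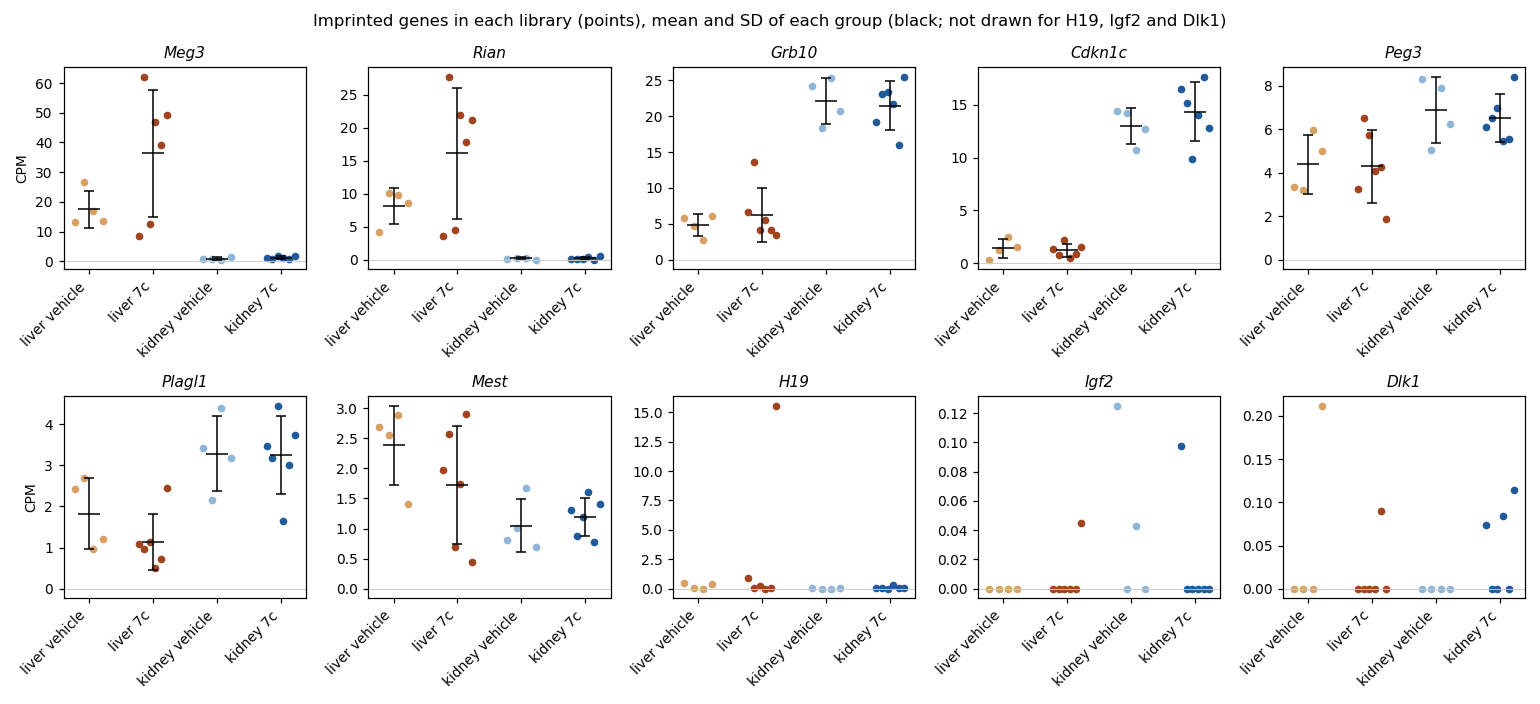
CPM of each imprinted gene (vertical axis, linear, its own range in each panel) in the 20 libraries by group, with the mean and SD of each group in black for the 7 genes past the count minimum. Meg3 and Rian were high in liver, Grb10 and Cdkn1c were high in kidney, and H19 had a single library above 1 CPM, liver 7c replicate 6.

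H19 and Igf2 are neighbours that share enhancers, H19 being a maternally expressed noncoding RNA and Igf2 the paternally expressed fetal growth factor. H19 had 22, 2, 6, 0, 1 and 344 counts in 7c livers (replicates 1 to 6) and 12, 3, 0 and 11 in vehicle livers. Thus 15.6 CPM came from replicate 6 alone, and the other 5 7c livers had 0 to 0.92 CPM, a range that held the 0 to 0.487 CPM of vehicle livers. In this library the skeletal muscle actin Acta1 stood at 280 CPM (6186 counts) against at most 2 counts in any other liver. Skeletal muscle is known to keep H19 in the adult, but the part of the muscle markers in the H19 value was not tested. In kidney H19 had 0 to 14 counts with 7c and 0 to 2 with vehicle. The exact permutation test on log2 CPM gave p = 0.676 in liver and p = 0.167 in kidney (6 against 4 libraries, two-sided, smallest possible p 0.00476).

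Igf2 RNA was at or close to 0 throughout. Its highest count was 8, in kidney 7c replicate 1, and vehicle kidneys had 6, 0, 2 and 0 counts. All 4 vehicle livers and 5 of 6 7c livers had 0, and replicate 6 had 1 count. A count of 0 allows up to 3 counts, or 0.103 to 0.136 CPM in a liver library and 0.0367 to 0.0837 CPM in a kidney library, counting error only. These bounds would be higher if both reads of a pair were counted. Dlk1, a paternally expressed transmembrane ligand-like protein that marks preadipocytes, had 6, 0, 0, 4, 0 and 6 counts in 7c kidneys and 0 in all 4 vehicle kidneys. In liver it had 2 counts in 1 of the 6 7c libraries and 6 counts in 1 of the 4 vehicle libraries. The exact permutation tests gave p = 0.200 in kidney and p = 0.733 in liver for Dlk1, and p = 0.400 in kidney and p = 1 in liver for Igf2. Fitted without a count minimum in edgeR, H19 in liver had an unadjusted p of 0.0219 (adjusted 0.641), or 0.970 without the library that held muscle markers, and Dlk1 in kidney had an unadjusted p of 0.0411 (adjusted 0.777). At this depth no 7c difference in H19, Igf2 or Dlk1 passed a test.

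In liver, Meg3 and Rian had higher mean levels with 7c, carried by 4 of the 6 mice. Meg3 had 206, 1545, 308, 1097, 863 and 1085 counts in 7c livers and 322, 730, 494 and 381 in vehicle livers, or 8.61, 62.2, 12.5, 46.7, 39.1 and 49.1 CPM against 13.1, 26.6, 17.0 and 13.5 CPM. Replicates 2, 4, 5 and 6 of the 7c group lay above every vehicle liver and replicates 1 and 3 below every vehicle liver, so the groups overlapped, and the 7c livers spanned 7.21 times from lowest to highest. Rian had 3.68, 27.8, 4.45, 21.9, 17.8 and 21.3 CPM in 7c livers and 4.18, 10.1, 9.76 and 8.55 CPM in vehicle livers. The same 4 livers were again above all vehicle livers. For 2 of the 7 tested members, Meg3 and Rian, 4 or more of the 6 7c livers lay above every vehicle liver. Over all 15012 genes tested, 8.23% met this count.

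Neither RNA passed the test. With edgeR's quasi-likelihood test and Benjamini-Hochberg adjustment the Meg3 log2 fold change was 1.03 ± 0.46 (SE, 95% interval 0.04 to 2.03), with an unadjusted p of 0.0428 and an adjusted p of 0.9996, and Meg3 ranked 455 by p among all genes. The Rian log2 fold change was 0.96 ± 0.50 (−0.12 to 2.04), unadjusted p = 0.0773. The exact permutation test on log2 CPM gave p = 0.243 for Meg3 and p = 0.362 for Rian. Without the library that held muscle markers the log2 fold changes were 0.93 for Meg3 and 0.87 for Rian. Leaving out 7c replicate 2, the highest library for both RNAs, gave 0.81 and 0.73.

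The other 5 tested members did not separate the groups in liver. Grb10, an adaptor that restrains insulin and IGF receptor signalling, had 6.61, 13.6, 4.13, 5.54, 4.16 and 3.53 CPM with 7c and 5.85, 4.74, 2.75 and 6.15 CPM with vehicle. Its log2 fold change of 0.34 ± 0.37 (−0.46 to 1.14) turned to −0.047 without 7c replicate 2. Plagl1, a zinc finger transcription factor that regulates other imprinted genes, had a median of 1.03 CPM (0.511 to 2.44) with 7c and 2.44, 2.7, 0.963 and 1.2 CPM with vehicle. Its log2 fold change was −0.68 ± 0.47 (−1.70 to 0.33), and leaving out 1 library moved it from −1.05, without the library that held muscle markers (its highest in the 7c group), to −0.45, without vehicle replicate 2. For Mest, an alpha/beta hydrolase family protein, the log2 fold change was −0.50 ± 0.47 (−1.50 to 0.51) and the 7c livers ran from 0.452 to 2.90 CPM. The lowest of these was the library that held muscle markers, and without it the log2 fold change was −0.30. Cdkn1c, an inhibitor of cyclin-dependent kinases, gave −0.23 ± 0.55 (−1.41 to 0.94). Peg3, a large zinc finger protein, gave −0.06 ± 0.33 (−0.77 to 0.65), and 0.096 without that library. Together 0 of 7 members passed an adjusted p of 0.05 in edgeR, where 0.00666% of all genes did (1 of 15012). At an unadjusted p under 0.05 there was 1 member, Meg3, against 3.76% of all genes. Fitted without a count minimum the unadjusted p in edgeR was 0.0130 for Meg3 and 0.0321 for Rian (0.0117 and 0.0329 without the library that held muscle markers). H19 was under 0.05 in that fit only with this library (0.0219, and 0.970 without it). With all libraries the adjusted p was 0.641 for each, and the share of all genes under 0.05 in that fit is not given here. The groups overlapped for all 7, while 0.666% of genes had groups that did not overlap. DESeq2, limma-voom and edgeR's likelihood ratio test also called 0 members.

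In kidney the 7 tested members did not separate the groups either. Meg3 had a median of 1.06 CPM (0.759 to 1.82) with 7c and 0.918, 0.672, 0.532 and 1.56 CPM with vehicle, a log2 fold change of 0.41 ± 0.38 (−0.42 to 1.24). Rian rested on 0 to 30 counts a library, and its log2 fold change of 0.18 ± 0.81 (−1.59 to 1.94) was not informative. Grb10 had 16.0 to 25.5 CPM with 7c and 24.2, 18.3, 25.3 and 20.7 CPM with vehicle, and its interval was the narrowest of the 7 at −0.38 to 0.26 around −0.06. Cdkn1c gave 0.13 ± 0.16 (−0.23 to 0.48), Peg3 gave −0.09 ± 0.18 (−0.49 to 0.30), Plagl1 gave −0.03 ± 0.27 (−0.62 to 0.56) and Mest gave 0.18 ± 0.32 (−0.52 to 0.87). None of the 7 passed the adjusted or the unadjusted threshold in edgeR, where 0% and 2.61% of 17749 genes did, and 0 were called by DESeq2, limma-voom or the likelihood ratio test. The groups overlapped for all 7 (0.721% of genes had groups that did not), and 0 of 7 had 4 or more 7c kidneys above every vehicle kidney, as 5.65% of genes did.

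Markers of fat were higher in the same 7c kidneys. The 7 adipocyte markers summed to 47.7 to 123 CPM with 7c and 29.8 to 39.9 CPM with vehicle, each of the 7 was above 0 in both groups, and all 7 had an unadjusted p under 0.05 with a median log2 fold change of 2.14, though the adjusted p was 0.997. Dlk1 is known from preadipocytes and Mest from adipocytes, and the part of the fat markers in the kidney values of these members was not tested. Hepatocyte markers had a median log2 fold change of −0.57 in these kidneys over the 6 of 7 tested in kidney. Their summed level overlapped, at 1686 to 2327 CPM with 7c and 1956 to 2343 CPM with vehicle. Alb had 13.1 ± 6.74 CPM in 7c kidneys and 27.5 ± 7.23 CPM in vehicle kidneys (−1.08 ± 0.32, unadjusted p = 0.00541 in edgeR) and Apoa1 had 1.16 ± 0.674 against 3.82 ± 3.18 CPM (−1.73 ± 0.55, unadjusted p = 0.00839 in edgeR), while the other 4 did not reach an unadjusted p of 0.05 and 0 of 6 were called. Their part in the kidney values was not tested either.

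**Figure D2:**
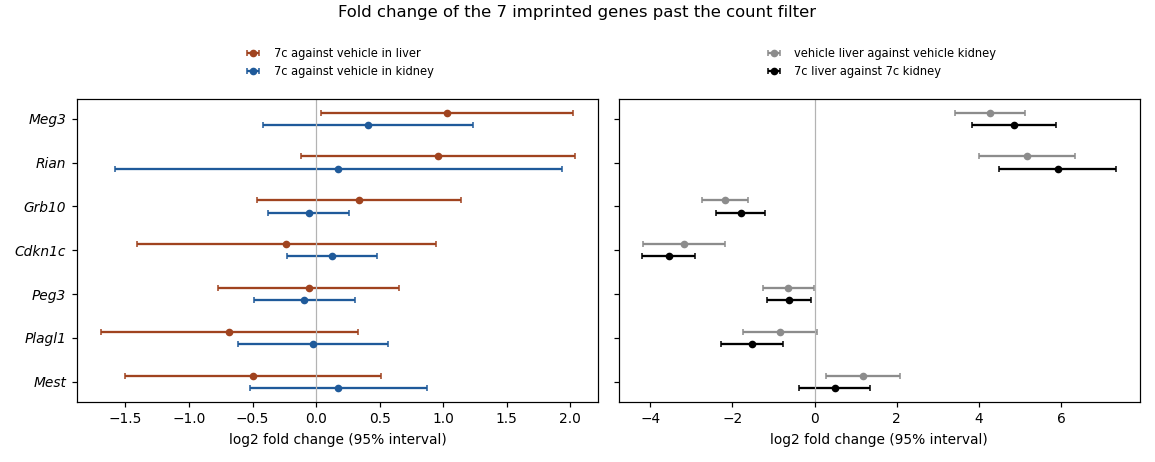
Log2 fold changes with 95% intervals (horizontal axis) of the 7 imprinted genes past the count minimum, 7c against vehicle on the left and liver against kidney on the right, from edgeR. On the left every interval but that of Meg3 in liver covered 0, and on the right those of Meg3, Rian, Grb10 and Cdkn1c lay far from 0 in vehicle and in 7c mice, with those of Peg3 just below 0 in both.

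Whether the effect of 7c differed between liver and kidney was tested as an interaction over the 14163 genes past the minimum in both tissues. For Meg3 the liver effect minus the kidney effect was 0.60 ± 0.64 on the log2 scale (−0.73 to 1.93), and for Rian 0.78 ± 0.94 (−1.17 to 2.72). Leaving out 1 replicate number moved these from 0.15 to 0.99 for Meg3 and from 0.40 to 1.09 for Rian, which stayed past the count minimum in 5 of these 10 fits. The smallest unadjusted p among the 7 members was 0.223, for Plagl1 at −0.67 ± 0.53, which moved from −1.05 to −0.26 when 1 replicate number was left out (vehicle 3 and vehicle 2). No member was called by edgeR, where 0.00706% of genes were, nor by DESeq2, limma-voom or the likelihood ratio test, and 0 members had an unadjusted p under 0.05 against 2.49% of genes. Fitted without a count minimum Dlk1 had an unadjusted p of 0.0252 (adjusted p = 0.763 in edgeR), with 0 counts in all 4 vehicle kidneys.

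Over the 10 livers the levels of Meg3 and Rian varied together. Pearson's r of log2 CPM was 0.962 and Spearman's rho 0.976 (permutation p = 1e-05, the smallest that 100000 resamples can give, and p = 5e-05). Benjamini-Hochberg adjustment over the 180 coefficients of all 90 member pairs in the 2 tissues gave 0.0018 and 0.0045. Without the 2 livers farthest from the Meg3 median r was 0.934, and with each treatment group centred on its mean it was 0.959. In every liver 0.320 to 0.635 Rian counts were found per Meg3 count, while Meg3 itself spanned 7.21 times in CPM. Among the 15011 other genes past the minimum in liver, Rian had the highest r with Meg3, and Meg3 the highest with Rian. The 10 points share library preparation and depth, and Meg3 and Rian are annotated without overlap on the same strand.

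**Figure D3:**
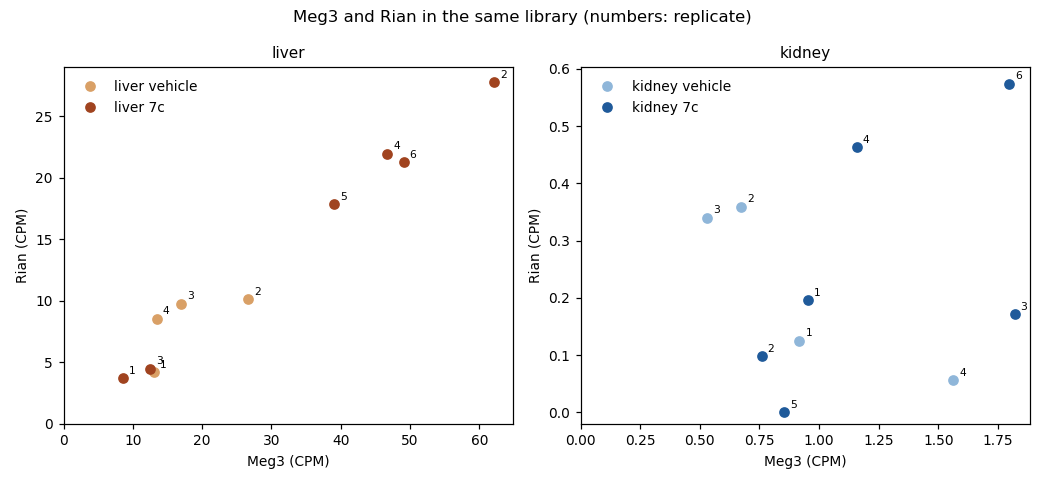
Rian against Meg3 in CPM (both axes linear) in each liver (left) and kidney (right), with the replicate number beside each point. In liver the 10 points follow a line from 7c replicate 1 at 8.61 CPM Meg3 to 7c replicate 2 at 62.2 CPM, and in kidney, where Rian reaches at most 0.574 CPM, they do not.

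Mirg, the microRNA-containing noncoding RNA that follows Rian in the same cluster, was set beside them after its values were seen. It had 0.244 to 2.21 CPM in liver, with r = 0.668 to Meg3 and r = 0.822 to Rian. Of other RNAs held in the nucleus, Malat1 (46.9 to 341 CPM) had r = 0.286 to Meg3 and r = 0.445 to Rian. Neat1 (190 to 655 CPM) had r = 0.135 and r = −0.058, and the imprinted antisense RNA Kcnq1ot1 (0.995 to 3.17 CPM) had r = −0.296 and r = −0.252. The share of counts on mitochondrial genes (3.61% to 5.78%) had r = 0.227 with Meg3 and r = 0.0931 with Rian. These are descriptions over the same 10 livers. The protein-coding genes of the cluster were nearly silent there: Dlk1 had at most 6 counts, the retrotransposon-like gene Rtl1 at most 12 and the thyroid hormone deiodinase Dio3 at most 10.

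In kidney, where Meg3 had 25 to 94 counts and Rian 0 to 30, r between them was 0.057 (rho 0.103, permutation p = 0.876 and 0.786). Of the 21 pairs among the 7 tested members, 1 in liver (Meg3 and Rian) and 4 in kidney had an unadjusted Pearson p under 0.05, and the Meg3 and Rian pair in liver alone passed the adjustment. The kidney pairs with the highest r were Peg3 and Grb10 (r = 0.83, rho 0.891, adjusted permutation p 0.121 and 0.084), Rian and Mest (r = 0.814, rho 0.830, adjusted p 0.121 for each) and Peg3 and Plagl1 (r = 0.731, rho 0.782, adjusted p 0.258 and 0.234). The fourth pair ran the other way, Cdkn1c and Grb10 at r = −0.67 (rho −0.58, adjusted permutation p 0.441 and 0.648). Grb10 ranked 712 by r among 17748 other genes for Peg3. The median r over the 21 pairs was −0.030 in liver and 0.138 in kidney.

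**Figure D4:**
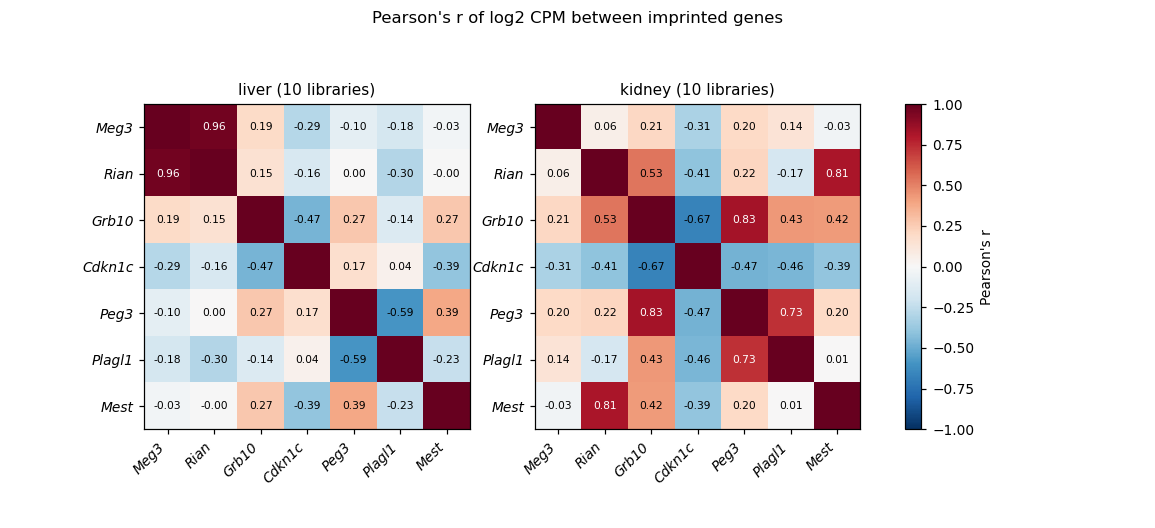
Pearson's r of log2 CPM (colour and number) for each pair of the 7 imprinted genes over 10 livers and over 10 kidneys. The Meg3 and Rian cell is dark red in liver and near white in kidney, where the darkest red cell joins Peg3 and Grb10.

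The genes whose pattern over the libraries of a tissue was most like that of a member, by Pearson's r of log2 CPM are given here by their highest values. After Rian, Meg3 in liver was most like Sympk (r = 0.958), a scaffold of the polyadenylation complex, and Maml1 (r = 0.956), a Notch coactivator. After Meg3, Rian was most like Zyx (r = 0.930), a focal adhesion protein, and the growth factor receptor Fgfr3 (r = 0.927). In kidney Grb10 was most like Tor1aip2 (r = 0.984), Cobll1 (r = 0.977) and Slc25a24 (r = 0.97), and 299 genes had an r over 0.9 with it, against 102 with Peg3, 17 with Cdkn1c and 1 with Meg3. The first gene for each other member in liver was Unc93a for Cdkn1c (r = 0.958), the mannose-binding lectin Mbl1 for Peg3 (r = 0.917), Zfp566 for Plagl1 (r = 0.902), Map7d1 for Grb10 (r = 0.887) and Pacc1 for Mest (r = 0.925). In kidney it was Cdc42ep5 for Cdkn1c (r = 0.940), Slc25a35 for Meg3 (r = 0.911), A730091E23Rik for Rian (r = 0.950), Dimt1 for Peg3 (r = 0.972), Dennd4c for Plagl1 (r = 0.945) and Cebpzos for Mest (r = 0.945). In liver the numbers over 0.9 ran from 0 for Grb10 to 12 for Meg3. High values of r are common among 15011 or 17748 genes over 10 libraries, and no p is attached to them.

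Liver and kidney held opposite members of the group. Meg3 had 13.1, 26.6, 17.0 and 13.5 CPM in vehicle livers against 0.918, 0.672, 0.532 and 1.56 CPM in vehicle kidneys, 19.3-fold higher in liver (10.7 to 34.7; log2 fold change 4.27 ± 0.38, edgeR adjusted p = 3.33e-06). Rian had 4.18, 10.1, 9.76 and 8.55 CPM against 0.125, 0.359, 0.340 and 0.0558 CPM, 36.1-fold higher (16.0 to 81.4; adjusted p = 9.67e-06 in edgeR). No vehicle kidney reached a vehicle liver for either RNA. In 7c mice the folds were 28.9 (14.2 to 58.6) for Meg3 and 60.8 (22.6 to 163) for Rian. Mirg had a median of 0.979 CPM in vehicle livers and was at 0 in 3 of 4 vehicle kidneys.

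Cdkn1c and Grb10, maternally expressed brakes on growth, went the other way. Cdkn1c had 0.325, 1.24, 2.51 and 1.59 CPM in vehicle livers and 14.4, 14.2, 10.7 and 12.7 CPM in vehicle kidneys, 9.05-fold lower in liver (4.56 to 18.0; adjusted p = 0.000117 in edgeR). Grb10 had 5.85, 4.74, 2.75 and 6.15 CPM against 24.2, 18.3, 25.3 and 20.7 CPM, 4.52-fold lower (3.07 to 6.65; adjusted p = 2.52e-05 in edgeR). Neither gene's groups overlapped. In 7c mice Cdkn1c was 11.8-fold lower (7.54 to 18.3) and Grb10 3.49-fold lower (2.30 to 5.31).

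The 3 remaining members differed less. Mest had 2.68, 2.55, 2.89 and 1.41 CPM in vehicle livers and 0.813, 1.01, 1.68 and 0.697 CPM in vehicle kidneys, 2.27-fold higher in liver (1.21 to 4.26; adjusted p = 0.0310 in edgeR). This call was lost when any of liver replicates 1, 2 and 3 or kidney replicates 1, 2 and 4 was left out (adjusted p up to 0.102 in edgeR), and in 7c mice the fold was 1.40 (0.771 to 2.55; log2 fold change 0.49, adjusted p = 0.302 in edgeR). Without the library that held muscle markers the log2 fold change in 7c mice was 0.74 (adjusted p = 0.0771 in edgeR). Mest overlaps Copg2 on the other strand, which had 29.8 to 40.4 CPM on average in the 4 groups, and the sources used here do not give the strand setting of the counting, so reads of Copg2 in the Mest count were not told apart. Plagl1 was 1.79-fold lower in vehicle livers (0.967 to 3.33; adjusted p = 0.102 in edgeR) and 2.90-fold lower in 7c livers (1.72 to 4.90; adjusted p = 0.00131 in edgeR), where 5 of 6 livers lay below every kidney. Peg3 was 1.56-fold lower in vehicle livers (1.02 to 2.39; adjusted p = 0.0761 in edgeR) and 1.54-fold lower in 7c livers (1.06 to 2.24; adjusted p = 0.0425 in edgeR). The Peg3 call in 7c mice was lost without the library that held muscle markers (adjusted p = 0.0830 in edgeR) and without any of 6 other libraries, liver 1, 4 and 5 and kidney 2, 3 and 6. It was also lost with no count minimum (adjusted p = 0.0522 in edgeR) and with the replicate number as a block.

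In all, 5 of 7 members were called between the tissues in vehicle mice, 3 higher and 2 lower in liver, where 53.4% of 17245 genes were called (25.7% higher, 27.7% lower). At an unadjusted p under 0.05 it was 6 of 7, against 58.4% of genes. In 7c mice 6 of 7 were called, 2 higher and 4 lower in liver, where 65.7% of 17117 genes were (30.9% higher, 34.8% lower), and 5 of 7 without the library that held muscle markers. The unadjusted count was also 6 of 7, against 68.7% of genes. Without a count minimum H19 was called higher in 7c liver too (log2 fold change 4.87, adjusted p = 0.00266 in edgeR). Without the library that held muscle markers, which had 344 of its counts, H19 was not called (log2 fold change 1.46, adjusted p = 0.264 in edgeR). The groups did not overlap for 4 of 7 members in either set of mice, against 53.2% and 47.8% of genes. Exact permutation tests of the 4 members without overlap gave p = 0.0286 in vehicle mice and p = 0.00216 in 7c mice. These are the smallest values that 4 against 4 and 6 against 6 libraries allow, and groups without overlap must give them. For Peg3, Mest and Plagl1 the exact permutation test gave p = 0.0571, p = 0.0571 and p = 0.0857 in vehicle mice. In 7c mice the exact permutation test gave p = 0.0260 for Peg3, p = 0.539 for Mest and p = 0.00433 for Plagl1.

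Of a written list of 40 other imprinted genes 39 were found in the table, 22 passed the count minimum in liver and 27 in kidney. With 7c 0 of 22 and 0 of 27 were called by edgeR, 0 had an unadjusted p under 0.05 in either tissue, and the median log2 fold changes were −0.05 and 0.01. Between vehicle liver and vehicle kidney 4 of 26 were higher in liver, 12 lower and 10 were not called, with a median of −0.45, against a median of −0.06 over all genes tested, of which 25.7% were called higher and 27.7% lower. A gene could reach the count minimum here through a single tissue, so the minimum itself set part of these directions. In 7c mice 4 of 26 were higher, among them Asb4 at a log2 fold change of 2.61 and Copg2 at 0.41, and 14 lower, where 30.9% and 34.8% of all genes were. Those higher in vehicle livers were the amino acid transporter Slc38a4 (1551 ± 123 against 2.85 ± 0.680 CPM, SD, n = 4), Sfmbt2 (1.19 ± 1.05 against 0.165 ± 0.0335 CPM), the cation transporter Slc22a3 (3.95 ± 2.17 against 0.667 ± 0.415 CPM) and the ubiquitin ligase Ube3a (35.8 ± 2.55 against 25.3 ± 4.59 CPM). Sfmbt2 and Ube3a were not called in 7c mice (log2 fold changes 1.31 and 0.27, adjusted p = 0.0889 and 0.0512 in edgeR).

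The 5 lowest in vehicle liver relative to kidney were Slc22a2, Phlda2, Zim1, Airn and Nap1l5. Phlda2 and Zim1 reached the count minimum through the kidneys alone, so they could only come out lower in liver. Slc22a2, a renal cation transporter, had 0.120 ± 0.194 CPM in vehicle livers and 405 ± 55.5 CPM in vehicle kidneys (SD, n = 4). Phlda2, a restrainer of placental growth in the cluster of Cdkn1c, was at 0 in all 4 vehicle livers and at 10.6 ± 4.02 CPM in kidneys, at least 86.7-fold lower in liver against the floor of 3 counts in a library, a bound that would be lower if both reads of a pair were counted. Zim1 held 2 counts in all vehicle livers together and 88 in vehicle kidneys. Airn, the antisense RNA of Igf2r, had 0.504 ± 0.347 against 7.95 ± 2.93 CPM, and Nap1l5 had 0.435 ± 0.416 against 5.26 ± 0.760 CPM. The strand setting of the counting is not given, so reads of the opposite strand in Airn and in the antisense Kcnq1ot1 were not told apart. In the Kcnq1 cluster the direction of Cdkn1c was shared by Phlda2, Kcnq1, Osbpl5 and Slc22a18, all lower in liver in both sets of mice, while Kcnq1ot1 was called lower in 7c mice (log2 fold change −0.65, adjusted p = 0.0353 in edgeR) and not called in vehicle mice (−0.08, adjusted p = 0.856 in edgeR).

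**Figure D5:**
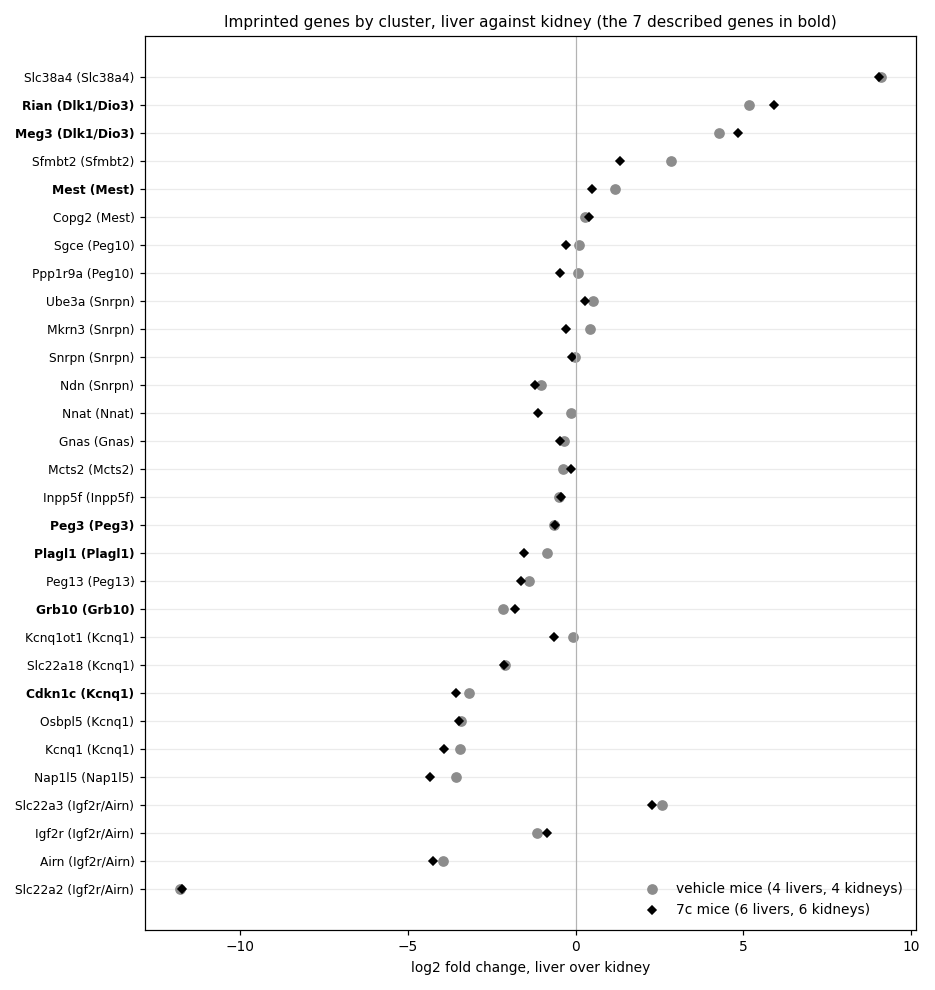
Log2 fold change of liver over kidney (horizontal axis) for 30 imprinted genes of 17 clusters, in vehicle mice (grey circles) and 7c mice (black diamonds), with the 7 described members in bold and the cluster in brackets, and 2 genes with 3 or fewer counts in a group left out. Meg3 and Rian lie right of 0 with Slc38a4, the Kcnq1 cluster lies left of 0, and 27 of the 30 genes are on the same side in both sets of mice.

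Among the partners of Igf2, the receptors Igf1r and Igf2r were lower in liver. Igf1r, the receptor through which IGF signals reach the cell, had 2.93 ± 1.44 CPM in vehicle livers and 185 ± 21.3 CPM in vehicle kidneys (SD, n = 4; log2 fold change −5.98 ± 0.34). Igf2r, the imprinted receptor that clears Igf2, had 53.8 ± 7.45 against 120 ± 33.7 CPM, and the RNA-binding protein Igf2bp2, which binds Igf2 mRNA, had 1.16 ± 0.720 against 6.61 ± 1.42 CPM. All 3 were called lower in liver in edgeR (adjusted p = 7.24e-08, 0.000795 and 0.000666). Over the list of 15 IGF ligands, receptors and binding proteins 5 were higher and 7 lower in vehicle liver, with 3 not called, where 53.4% of all genes were called. In 7c mice 6 of 14 were higher and 7 lower, where 65.7% of all genes were called. Igf1, the growth factor that takes over from Igf2 after birth, had 655 ± 101 CPM in vehicle livers and 3.08 ± 0.801 CPM in kidneys, and the other 4 higher in liver were Igfbp2, Igfals, Insr and Igfbp4. Those lower included Igfbp5 and Igfbp3 (log2 fold changes −3.77 and −2.63 in vehicle mice). With 7c 0 of 13 in liver and 0 of 15 in kidney were called, at an unadjusted p under 0.05 as well.

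A list of fetal liver genes and the adult repressors that act on them (Zbtb20, Zhx2) was read beside the members. Afp, the fetal serum protein, had 5.52 ± 1.57 CPM in 7c livers (n = 6) and 3.87 ± 0.215 CPM in vehicle livers (n = 4), a log2 fold change of 0.48 ± 0.25 (−0.05 to 1.01) that was not called. Gpc3, a fetal glypican, had 1.41 ± 1.05 against 2.46 ± 1.38 CPM (−0.83 ± 0.65). Of the 10 genes on this list 0 of 5 in liver and 0 of 7 in kidney were called with 7c, and 1 in each tissue, Zbtb20, a repressor of Afp, had an unadjusted p under 0.05 (log2 fold change −0.22 and −0.30).

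The 19 genes that maintain or remove the imprint (DNA methyltransferases, Uhrf1, Trim28, Zfp57, Zfp445, Ctcf, Polycomb subunits, demethylases and histone deacetylases) gave 0 calls of 17 in liver and 0 of 19 in kidney with 7c. Hdac2 in liver was the 1 gene with an unadjusted p under 0.05, at a log2 fold change of −0.27. Between vehicle liver and kidney Dnmt3b, Zfp445, Ezh2, Eed and Suz12 were higher in liver and Tet2 was lower, 6 of 19 genes, where 53.4% of all genes were called. In 7c mice 12 of 18 were called, 7 higher and 5 lower in liver, where 65.7% of all genes were. For the other cell types, the 5 cholangiocyte markers summed to 34.8 to 43.4 CPM in 7c livers and 42.8 to 71.5 CPM in vehicle livers, each above 0 in both groups, with 2 of 5 at an unadjusted p under 0.05, 0 called and a median log2 fold change of −0.45. Their part in the liver values of the members was not tested. Stroma and pericyte markers summed to 309 to 462 CPM and endothelial markers to 171 to 318 CPM in the livers, ranges that overlapped between 7c and vehicle, and 0 of 10 and 0 of 7 of these markers were called with 7c in liver.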

How the data were processed

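Polyadenylated RNA of liver and kidney was measured by stranded sequencing of 20 libraries. The authors aligned reads with STAR 2.7.11b to GRCm39 and counted them with featureCounts 2.0.6, and the deposited values are raw counts per gene, with no normalization. The annotation release, the strand setting and the treatment of reads with several positions are not given in the sources used here, nor is whether a read pair counted once. Symbols, positions and exon lengths came from GENCODE vM39 on GRCm39, which matched 56310 of 57010 identifiers (the other 700 held 0.0417% of counts). Promoter and microRNA sequences came from RefSeq (GRCm38.p6), whose table matched 8 of the 10 members for promoters (15 windows), with no entry for H19 and Cdkn1c.

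A gene was tested where 50% or more of a fit's libraries (for the interaction, of each tissue's) reached 10 counts, with edgeR 4.0.16 in R 4.3.3: TMM, quasi-likelihood F-test, Benjamini-Hochberg adjustment over all genes tested, threshold 0.05. Each tissue was fitted alone with treatment as the only term, as in the study, and tissues were compared within vehicle and within 7c mice. The study's own lists of genes called with 7c were longer than those of this fit in both tissues. The 2 7c comparisons share no library. Correlations and exact tests were run on log2 CPM, prior count 2, under a TMM scaling over all 20 libraries, in numpy 2.4.6 and scipy 1.17.1, and figures used matplotlib 3.10.9. The scripts were tested on simulated data. The labels call the samples of a group biological replicates and do not say which liver and kidney came from the same mouse.

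The members, gene lists and tests were chosen with earlier results of these data known. All 10 members are described. Other listed genes are named where past the threshold with 7c (there were none). For the other imprinted genes the 5 largest or smallest called changes between vehicle tissues are named, and for the other lists these are named only in part. Igf1r, Igf2r, Igf2bp2, Afp and Gpc3 were named in any case. Genes most like a member are those with the highest Pearson r. Mirg, Malat1, Neat1, Kcnq1ot1, Rtl1, Dio3, Igf1, Hdac2, Zbtb20, the Kcnq1 cluster and the called imprint genes were named after their values were seen. As alternatives, the fits were repeated by limma-voom (limma 3.58.1), by edgeR's likelihood ratio test, by DESeq2 1.42.0 and with RLE scaling, and with no filter, filterByExpr, all 20 libraries in 1 fit, the replicate number as a block, a prior count of 0.5, and leaving out each library. Intervals and floors cover 95% and 3 counts, counting error only for floors.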

Additional observations from a re-analysis of the deposited data

Results flagged for a closer look

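In 8 of the 38 groups of libraries with a value above 0, the highest library of a member lay apart from the rest of its group by a gap that Dixon's test calls (95% level), a test that chance alone passes in about 1 in 20 groups of normally distributed values. That rate does not hold for the 4 groups of Igf2 and Dlk1 named here, where every other library was at 0 and any count gives the full gap. H19 stood at 15.6 CPM (344 counts) in liver 7c replicate 6, the library with 977 CPM of skeletal muscle markers, and at 0.295 CPM (14 counts) in kidney 7c replicate 4, which had the highest sum of muscle markers of the 7c kidneys (4.61 CPM). Igf2 stood at 0.0452 CPM (1 count) in liver 7c replicate 6 and at 0.0978 CPM (8 counts) in kidney 7c replicate 1, with 0 in the other libraries of each group. Dlk1 stood at 0.0905 CPM (2 counts) in liver 7c replicate 5 and at 0.212 CPM (6 counts) in liver vehicle replicate 4, again with 0 in the rest.

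Plagl1 was highest in liver 7c replicate 6 at 2.44 CPM (54 counts), against 0.511 to 1.13 CPM in the other 7c livers. Grb10 was highest in liver 7c replicate 2 at 13.6 CPM (338 counts), against 3.53 to 6.61 CPM, in the library that was also highest for Meg3 and Rian. The part of the muscle markers in these values was not tested.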

How the results depend on the processing

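The counts of members past the threshold and the count of correlated pairs stayed within 1.5 times of their values under all alternatives run, 102 values in all. Of the values for single members and pairs, 630 kept direction and side of the threshold, 17 lost a call, 5 gained a call and 26 changed sign, the last among changes that were never called. The cause was not tested. By 7c in liver, leaving out a library moved the log2 fold change of Cdkn1c from −0.56 to 0.21, of Peg3 from −0.21 to 0.14 and of Grb10 from −0.047 to 0.49. In kidney it moved Rian from −0.13 to 0.42, Peg3 from −0.21 to 0.011, Plagl1 from −0.18 to 0.15 and Grb10 from −0.13 to 0.014, and the Pearson r of Meg3 and Rian from −0.21 to 0.23. It also moved Meg3 in kidney from 0.22 to 0.78 and Mest in kidney from 0.026 to 0.50. In the interaction, leaving out 1 replicate number in both tissues moved Cdkn1c from −0.75 to 0.14, Peg3 from −0.19 to 0.26, Grb10 from 0.022 to 0.56 and Mest from −0.99 to −0.43. Without a filter and without liver 7c replicate 6, an alternative chosen after seeing the data, Peg3 in liver was 0.11. With limma-voom Rian in kidney was −0.21 and the Peg3 interaction −0.021. Between vehicle tissues Peg3 (adjusted p = 0.0340) and Plagl1 (adjusted p = 0.0476) were called by DESeq2 alone of the tools, and without a filter Mest was not called (adjusted p = 0.0635) in edgeR, nor was Peg3 between 7c tissues (adjusted p = 0.0522) in edgeR. Leaving out a library also brought Peg3 and Plagl1 under the threshold between vehicle tissues in at least 1 edgeR fit each (lowest adjusted p 0.0274 and 0.0416). All genes called with 7c numbered 1 in liver and 0 in kidney in the main setting, against 6 and 18 in DESeq2, 1 and 2 in limma-voom, 7 and 14 by likelihood ratio, 4 and 3 unfiltered, and 4 and 18 in the fit of all 20 libraries.

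With the replicate number as a block, 0 members were called with 7c in liver or kidney and 0 in the interaction. Peg3 in liver was then 0.13 and its interaction −0.016, Meg3 and Rian in liver were 0.49 and 0.40, and Peg3 between 7c tissues was no longer called (adjusted p = 0.0519). Replicates 5 and 6 exist in the 7c group only, so the block left them out of the 7c fold changes within a tissue. It also matched 7c and vehicle mice that the labels do not pair. Same-numbered liver and kidney correlated over 0.1 in 7 of 10 cases, and 8 of 10 matched their own number best. Same-numbered 7c and vehicle libraries correlated over 0.1 in 1 of 8 cases. If the numbers do mark mice, the tissue comparisons and the interaction were fitted without that pairing. The labels do not give it, so the numbers were not taken as pairing. The planned correlation of each member between liver and kidney over these numbers was therefore not run. Depth limits H19, Igf2 and Dlk1, and Rian in kidney.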
